A study of Rattus norvegicus with 6 samples.

Results

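Aquaporins are membrane channels that let water, and in some cases glycerol or other small solutes, cross the cell membrane, and vasopressin receptors are the G protein-coupled receptors through which the pituitary hormone vasopressin sets how much water the kidney returns to the blood. The 10 genes described here are the 8 aquaporin genes Aqp1, Aqp2, Aqp3, Aqp4, Aqp5, Aqp6, Aqp7 and Aqp11 and the 2 receptor genes Avpr1a and Avpr2. They were chosen by name, and probes were assigned to them through the RefSeq accession that the array files give for each probe. All 10 genes were measured, by 18 of the 61537 non-control probes, and all 10 were among the 29938 genes tested.

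The samples were total RNA from the outer part of the kidney, the renal cortex, each hybridised to its own one-colour Agilent array. All animals were male Sprague-Dawley (Crl:CD(SD)) rats bought at 5 weeks of age and kept on a basal diet with free access to tap water. The vehicle group of 3 rats was given corn oil for 4 weeks, and the phenylbutazone group of 3 rats was given phenylbutazone at 200 mg/kg/day for 4 weeks. Phenylbutazone is a non-steroidal anti-inflammatory drug that blocks the cyclooxygenases and so the synthesis of prostaglandins.

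In the collecting duct, vasopressin binds the V2 receptor (Avpr2) on the blood side of the principal cell, cyclic AMP rises, and AQP2 water channels are moved to the urine side of the cell. Water then leaves through AQP3 and AQP4 on the blood side. Prostaglandin E2 is known to hold this response back, and drugs that block prostaglandin synthesis are known for water retention. AQP1 carries the constitutive water flow of the proximal tubule and the descending thin limb.

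The comparison of phenylbutazone with vehicle asks whether transcripts of this system differed in the cortex after 4 weeks of dosing. None of the 10 genes passed the test, which was limma with Benjamini-Hochberg adjustment over all 29938 genes at a threshold of 0.05. The same test called 0 of the 29938 genes (0%), of which 3657 had an unadjusted limma p under 0.05. At an unadjusted limma p under 0.05 stood 1 of the 10 genes, Aqp6, against 12.2% of all genes tested, so that the share among the 10 was near the background. The direction was lower in phenylbutazone for Aqp2, Aqp5, Aqp6, Aqp11 and Avpr2 and higher for Aqp1, Aqp3, Aqp4, Aqp7 and Avpr1a, with a median log2 difference of -0.12 over the 10 genes and 0.015 over all genes. The direction of Aqp1, Aqp4, Aqp7 and Avpr1a turned in some of the 18 alternative settings, and for Aqp7 and Avpr1a another background correction was among them. With 3 arrays per group, the 95% intervals of the log2 differences reached from -0.12 to 0.40 for Aqp3, the narrowest of the set, and from -2.0 to 0.26 for Aqp5, the widest.

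A level below is the log2 of a probe's processed intensity over the 75th percentile of its array, an intensity is the processed signal on a linear scale, and differences are phenylbutazone minus vehicle on the log2 scale with the standard error (n = 3 per group). The 3 values of a group are given in the order of its arrays 1, 2 and 3, and high, low and overlapping arrays are called from the scaled levels. Levels of different probes are not set against each other, because probes bind with different strength. The 75th percentile lay between 891.2 and 1002.6 on the 6 arrays, and 65.2% to 68.4% of probes passed the scanner's call of well above background. Vehicle arrays 1 and 2 lay on slide 1, and vehicle array 3 lay on slide 2 with all 3 phenylbutazone arrays. Slide 2 was scanned on another day. The difference within slide 2 therefore rests on 1 vehicle array. Over all genes tested, the median absolute log2 difference between vehicle array 3 and each phenylbutazone array was 0.281 to 0.305. For vehicle arrays 1 and 2, on the other slide, it was 0.193 to 0.21. Vehicle array 3 was thus the least like the phenylbutazone arrays although it shared their slide, and a difference within slide 2 also carries what is peculiar to that array. In these bulk samples, fewer cells of a type and less RNA per cell cannot be told apart. Of the markers of the labelled tissue, all 20 proximal tubule genes were measured, with a summed level (as a ratio to the 75th percentile) of 2850 to 3030 in vehicle and 2950 to 2990 in phenylbutazone. Markers of the medulla and papilla, 12 of 15 measured, summed to 24.2 to 25.3 in vehicle and 25.0 to 29.0 in phenylbutazone. Bright genes weigh most in such a sum. Of the 12 markers, 7 stood higher and 5 lower. At an unadjusted limma p under 0.05 were 3 lower and 0 higher, against 6.24% and 5.97% of all genes.

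Aqp2, Aqp5 and Aqp6 lie next to each other on rat chromosome 7, in that order and with no other listed gene between them, and all 3 stood lower in phenylbutazone. The 3 did not follow each other on every array. On phenylbutazone array 1 the brighter Aqp2 probe and the Aqp5 probe stood above every vehicle array, and both Aqp6 probes stood below. In the RefSeq annotation of the build GRCr8 the start of Aqp5 lies 11.2 kb after that of Aqp2, and the start of Aqp6 lies 9.5 kb after that of Aqp5. The 250 bases before each start are shown because the neighbours have very different sequence there. They are written 5′ to 3′ on the plus strand of the gene, with matches to 5 short motifs in capitals. The windows are chr7:132590036-132590285 for Aqp2, chr7:132601278-132601527 for Aqp5 and chr7:132610819-132611068 for Aqp6, all on the plus strand.
Aqp2 promoter: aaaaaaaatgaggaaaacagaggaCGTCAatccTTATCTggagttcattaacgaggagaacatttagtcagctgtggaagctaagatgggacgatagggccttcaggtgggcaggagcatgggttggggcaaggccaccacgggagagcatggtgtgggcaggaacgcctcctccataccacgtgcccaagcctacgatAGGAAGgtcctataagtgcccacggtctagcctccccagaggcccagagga
Aqp5 promoter: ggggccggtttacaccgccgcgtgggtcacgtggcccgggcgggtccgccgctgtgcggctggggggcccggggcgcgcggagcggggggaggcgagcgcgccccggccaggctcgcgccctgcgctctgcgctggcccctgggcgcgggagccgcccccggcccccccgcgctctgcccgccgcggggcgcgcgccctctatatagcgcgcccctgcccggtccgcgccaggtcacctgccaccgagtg
Aqp6 promoter: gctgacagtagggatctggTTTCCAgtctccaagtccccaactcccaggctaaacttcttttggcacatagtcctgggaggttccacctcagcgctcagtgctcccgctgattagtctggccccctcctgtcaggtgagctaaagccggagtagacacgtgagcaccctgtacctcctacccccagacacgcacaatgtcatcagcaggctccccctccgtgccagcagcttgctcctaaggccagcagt

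The 5 motifs, searched on both strands, were TGACG, the core of the cyclic AMP response element to which CREB binds, AGATAA for GATA factors, AGGAAG for ETS factors such as ELF3 and ELF5, TGGAAA, the core of the tonicity element to which NFAT5 binds, and TATAAA, the TATA box. The letters of the motifs do not overlap in these windows. The Aqp2 window held the cyclic AMP core (as CGTCA, first base at position -226, where -1 is the base before the start), the GATA motif (as TTATCT, at -217) and the ETS motif (as AGGAAG, at -51). The Aqp6 window held the tonicity core (as TTTCCA, at -231), and the Aqp5 window held none of the 5 motifs. Of 33469 promoter windows of this length in the RefSeq table, 18.2% held the cyclic AMP core, 10.3% the GATA motif, 29.5% the ETS motif, 19.7% the tonicity core and 12.9% the TATA box. G and C made up 83.2% of the Aqp5 window, which had 41 CpG pairs, against 54.4% and 8 CpG pairs for Aqp2 and 58.4% and 6 CpG pairs for Aqp6. A match describes the letters only.

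Avpr2 encodes the V2 receptor, which raises cyclic AMP in principal cells. Its brighter probe had intensities of 1267, 1294 and 1708 in vehicle and 1314, 1101 and 965.9 in phenylbutazone. Phenylbutazone arrays 2 and 3 were below every vehicle array, phenylbutazone array 1 lay among them, and the groups overlapped. The log2 difference was -0.31 ± 0.208 (1.24-fold lower; limma adjusted p = 0.579). The other Avpr2 probe ranked the phenylbutazone arrays in the same order, with a difference of -0.34 ± 0.196. Within slide 2, where the vehicle array was the brightest of all, the difference of the brighter probe was -0.64. Without vehicle replicate 3 it was -0.14.

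Avpr1a encodes the V1a receptor, which acts through calcium rather than cyclic AMP and is known from vascular smooth muscle and from the intercalated cells of the collecting duct. Its intensities were 386.4, 387 and 427.3 in vehicle and 437.9, 416.7 and 435.2 in phenylbutazone. The groups overlapped through vehicle array 3, which lay above phenylbutazone arrays 2 and 3. The difference was 0.13 ± 0.114 log2 units (limma adjusted p = 0.674), and within slide 2 it was -0.02. Smooth muscle and mesangial markers, 14 of 15 measured, summed to 70.3 to 85.4 in vehicle and 61.1 to 82.5 in phenylbutazone. Their part in the Avpr1a value was not tested, and Cnn1 of that list was well above background on 0 arrays.

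Aqp2 encodes the vasopressin-regulated water channel of the urine side of the principal cell. Its brighter probe had intensities of 102000, 99540 and 85390 in vehicle and 110600, 63880 and 69790 in phenylbutazone. Phenylbutazone array 1 was the brightest of the 6, whereas phenylbutazone arrays 2 and 3 were below every vehicle array. The difference was -0.25 ± 0.248 (84.3% of vehicle; limma adjusted p = 0.714), with a 95% interval of -0.85 to 0.36, which spans a 1.80-fold lower to a 1.28-fold higher level. The within-group SD was 0.11 in vehicle and 0.49 in phenylbutazone, larger than that of 92.3% of genes in the phenylbutazone group.

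The other Aqp2 probe had intensities of 15010, 12780 and 13630 in vehicle and 13530, 9864 and 8645 in phenylbutazone. Phenylbutazone arrays 2 and 3 were again the lowest of the 6, and phenylbutazone array 1 lay within the vehicle range. This probe gave -0.37 ± 0.217. Leaving out phenylbutazone replicate 1 moved the difference of the brighter Aqp2 probe to -0.53 and leaving out replicate 2 moved it to -0.08. With replicate 3 left out it was -0.13, with vehicle replicate 1 left out -0.19, and within slide 2 -0.14.

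**Figure D1:**
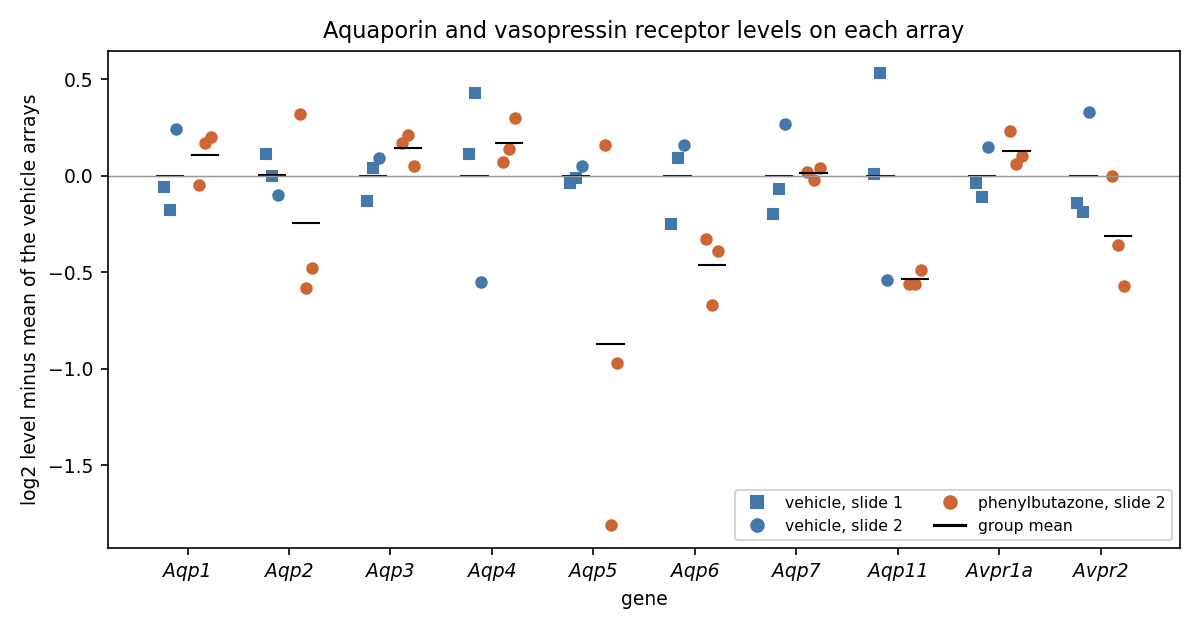
Log2 level of each of the 10 genes on each array, minus the mean of the 3 vehicle arrays (y axis, log2 units; x axis, gene, 1 probe per gene). Squares are arrays of slide 1, circles arrays of slide 2, and black bars group means. For Aqp2, Aqp5 and Avpr2, phenylbutazone array 1 (left circle of its group) stands above arrays 2 and 3, and for Aqp11 vehicle array 3 stands with the phenylbutazone arrays.

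Other markers of the principal cell stood in both directions. Of 14 such markers, chosen without aquaporins and Avpr2, 13 were measured, 7 higher and 6 lower, with a median difference of 0.05. Their summed level was 115 to 146 in vehicle and 151 to 161 in phenylbutazone, with no overlap. Without Krt18, left out after its value was seen, the other 12 summed to 109 to 138 in vehicle and 126 to 145 in phenylbutazone, and the groups overlapped. On phenylbutazone array 1, where Aqp2 was highest, that sum was 145, against 126 and 129 on arrays 2 and 3. Their part in the Aqp2 value was not tested. Scnn1b, which encodes a subunit of the epithelial sodium channel, stood at 0.39 ± 0.206 and at 0.05 on its other probe, and Hsd11b2, which encodes the enzyme that shields the mineralocorticoid receptor from glucocorticoids, at 0.27 ± 0.137. Krt18, a keratin gene that is also a known marker of tubular injury, had the largest difference of the list, 1.41 ± 0.408. The 6 lower markers were Kcnj1 at -0.35 ± 0.193, Tfcp2l1 at -0.22 ± 0.122, Calb1 at -0.20 ± 0.222, Tmem45b at -0.19 ± 0.138, Elf5 at -0.19 ± 0.288 and Gata3 at -0.12 ± 0.176 (0.06 on its other probe). Of these 6, all but Tfcp2l1 stood higher on phenylbutazone array 1 than on arrays 2 and 3, as did Aqp2. None of the 13 passed the test, and 1, Krt18, had an unadjusted limma p under 0.05, against 12.2% of all genes. Fxyd4, a defining gene of the list, had no probe that could be named.

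Aqp3 encodes the water and glycerol channel of the blood side of the principal cell. Its intensities were 26930, 31940 and 30430 in vehicle and 31030, 34370 and 31190 in phenylbutazone. Phenylbutazone arrays 1 and 2 were above every vehicle array on the scaled level, and phenylbutazone array 3 lay within the vehicle range. The difference was 0.14 ± 0.107 (1.10-fold higher; limma adjusted p = 0.625), and it was 0.05 within slide 2. The 95% interval of -0.12 to 0.40 leaves out a decrease larger than 1.09-fold and an increase larger than 1.32-fold.

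Aqp4 encodes the other water channel of the blood side of the principal cell, best known from astrocytes of the brain. It was the only one of the 10 genes with 6 probes, and these did not give 1 answer. The brightest had intensities of 672, 883.6 and 411.8 in vehicle and 609.9, 690.4 and 784.5 in phenylbutazone. Vehicle array 3 was the lowest of the 6 and vehicle array 2 the highest, so that the phenylbutazone arrays lay inside the vehicle range. The difference was 0.17 ± 0.253 (limma adjusted p = 0.812). Within slide 2 it was 0.72, and without vehicle replicate 3 it was -0.10. With slide as a block the limma adjusted p for Aqp4 was 0.0742.

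Of the other 5 Aqp4 probes, 3 were tested, with differences of -0.11 ± 0.0959, -0.09 ± 0.156 and 0.28 ± 0.396. The probe at -0.11 had intensities of 133, 149.4 and 130.3 in vehicle and 124.4, 128.3 and 121.7 in phenylbutazone, with no overlap between the groups once scaled, though vehicle array 1 and phenylbutazone array 1 both rounded to a level of -2.84. This probe did not show the low value of vehicle array 3 that the brightest probe showed. The remaining 2 probes were well above background on 1 and 0 of 6 arrays and were not tested.

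**Figure D2:**
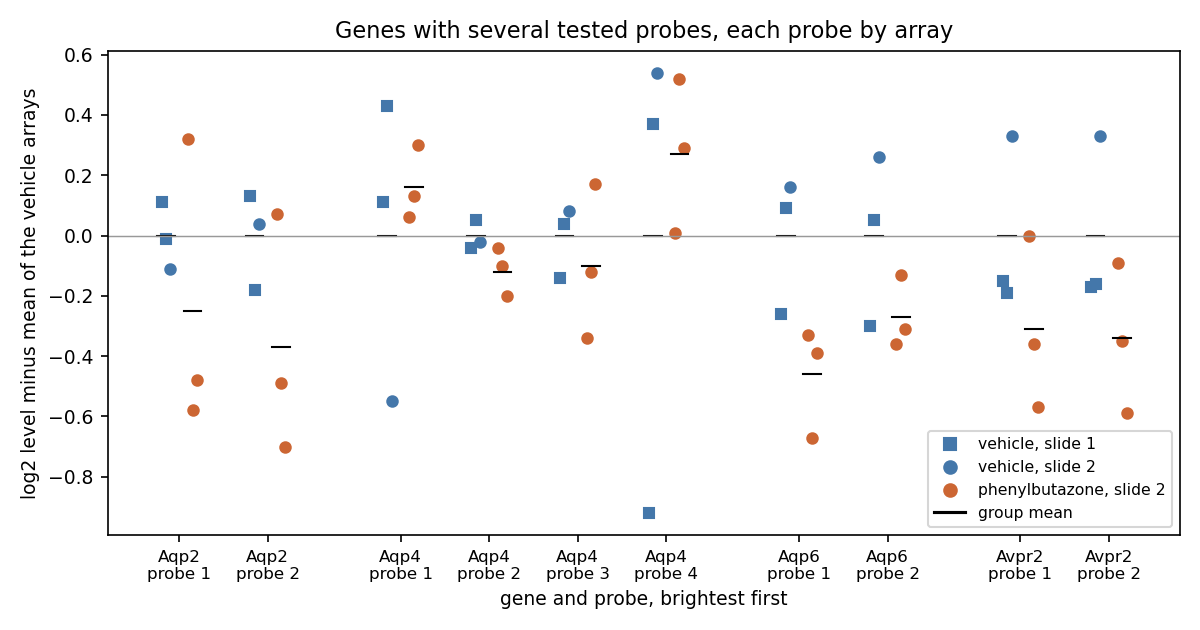
Log2 level of each tested probe of Aqp2, Aqp4, Aqp6 and Avpr2 on each array, minus that probe's mean over the vehicle arrays (y axis, log2 units; x axis, gene and probe, brightest probe first). Squares are arrays of slide 1, circles arrays of slide 2, and black bars group means. Both probes of Aqp2 place phenylbutazone arrays 2 and 3 lowest, both probes of Avpr2 give nearly the same values, and the 4 probes of Aqp4 differ among themselves.

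Aqp5 encodes a water channel best known from salivary and lacrimal glands, and it lies next to Aqp2 on the chromosome. Its probe was dim but well above background on all 6 arrays, with intensities of 90.81, 97.81 and 93.24 in vehicle and 97.64, 26.86 and 48.91 in phenylbutazone. The 3 vehicle arrays and phenylbutazone array 1 lay close together, and phenylbutazone arrays 2 and 3 lay far below them. The vehicle SD of 0.04 was larger than that of only 4.58% of genes, and the phenylbutazone SD of 0.99 larger than that of 98.0%. The lowest intensity that counted as well above background was 20.0 on phenylbutazone array 2 and 19.3 on phenylbutazone array 3, against intensities of 26.86 and 48.91 for Aqp5.

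The difference of Aqp5 was -0.87 ± 0.467 (1.83-fold lower; limma adjusted p = 0.497), the largest of the 10 genes in size and larger than that of 97.3% of all genes tested. It did not pass, and its 95% interval spans a 4.01-fold lower to a 1.20-fold higher level. Leaving out phenylbutazone replicate 1 gave -1.39, and leaving out replicate 2 gave -0.40. Normexp background correction with an offset of 50 gave -0.43. Within slide 2 the difference was -0.92. Over the 6 arrays the Aqp5 level had a Pearson correlation of 0.906 with that of Aqp2, against 0.472 for Aqp6 and 0.595 for Avpr2. These values only describe 6 arrays on which slide and treatment partly coincide.

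Aqp6 encodes a channel of intracellular vesicles in the acid-secreting intercalated cell, which also lets anions pass. Its brighter probe had intensities of 157.3, 210.8 and 202.7 in vehicle and 139.9, 119.3 and 146.9 in phenylbutazone. All 3 phenylbutazone arrays were below every vehicle array, as were those of 9.39% of all genes tested, and the nearest were phenylbutazone array 1 at a level of -2.67 and vehicle array 1 at -2.60. The difference was -0.46 ± 0.157 (1.38-fold lower; limma unadjusted p = 0.0252, adjusted p = 0.356). Within slide 2 it was -0.62.

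The other Aqp6 probe had intensities of 122.8, 165.5 and 176.2 in vehicle and 110.5, 139.9 and 125.3 in phenylbutazone. Here the groups overlapped, since phenylbutazone array 2 was above vehicle array 1, and the difference was -0.27 ± 0.167. With normexp background correction the difference of Aqp6 was -0.21, less than the -0.46 without it by over 1.5 times.

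Markers of the intercalated cell, which houses AQP6, were measured in 13 of 15 cases, 9 higher and 4 lower, with a median of 0.16. Their summed level was 168 to 212 in vehicle and 227 to 272 in phenylbutazone, with no overlap. Without Atp6v1g3 and Slc26a4, left out after their values were seen, the sums of the other 11 were 78.1 to 91.5 in vehicle and 81.5 to 96.2 in phenylbutazone, and the groups overlapped. The part of these cells in the Aqp6 value was not tested. At an unadjusted limma p under 0.05 were 5 of the 13, all higher, against 5.97% of all genes in that direction, and 0 passed the adjusted test. The 4 lower markers were Dmrt2 at -0.34 ± 0.185, Rhbg at -0.28 ± 0.152, Rhcg at -0.19 ± 0.142 and Car2 at -0.05 ± 0.122. The list does not separate the acid-secreting cell from other intercalated cells. Hepacam2, a cell adhesion gene, stood at 0.50 ± 0.0929, Slc26a4, which encodes the chloride and bicarbonate exchanger pendrin, at 0.68 ± 0.178 and Atp6v1g3, which encodes a proton pump subunit, at 0.57 ± 0.167. Insrr, which encodes an alkali-sensing receptor, stood at 0.85 ± 0.102, whereas its other probes stood at 0.26 and 0.42. Slc26a7 was well above background on 0 arrays.

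Aqp1 encodes the constitutive water channel of the proximal tubule and the descending thin limb and is also abundant in erythrocytes and in the endothelium of the descending vasa recta. Its intensities were 112100, 109100 and 133500 in vehicle and 105900, 133200 and 138100 in phenylbutazone. Vehicle array 3 and phenylbutazone arrays 2 and 3 were the bright ones, and vehicle arrays 1 and 2 and phenylbutazone array 1 the less bright ones, so that the groups overlapped. The difference was 0.11 ± 0.145 (limma adjusted p = 0.786), with a 95% interval of -0.24 to 0.46. Within slide 2 it was -0.13, where no phenylbutazone array had a higher scaled level than vehicle array 3.

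Markers of the proximal tubule, the main site of AQP1 in the cortex, had a median difference of 0, with 10 of 20 higher and 10 lower. Slc4a4, which encodes the sodium bicarbonate cotransporter of the blood side, stood at 0.48 ± 0.102 and the endocytic receptor gene Lrp2 at -0.19 ± 0.0919, where another Lrp2 probe stood at 0.01. Erythrocyte markers were measured in 15 of 20 cases, 13 higher and 2 lower, with a median of 0.48 and a summed level of 659 to 911 in vehicle and 784 to 1270 in phenylbutazone. The globin gene Hbb-b1 stood at 0.55 ± 0.23, and Rhag of that list was well above background on 0 arrays. The Aqp1 levels on phenylbutazone arrays 1, 2 and 3 were 6.89, 7.12 and 7.15, all inside the vehicle range. The summed erythrocyte levels there were 1120, 784 and 1270. The part of these cells in the Aqp1 value was not tested. Endothelial markers, 12 of 13 measured, summed to 85.9 to 94.4 in vehicle and 79.2 to 96.8 in phenylbutazone.

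Aqp7 encodes the glycerol and water channel of the brush border in the straight part of the proximal tubule and is also the glycerol channel of fat cells. Its intensities were 12990, 14920 and 17340 in vehicle and 14170, 14850 and 15670 in phenylbutazone. The phenylbutazone arrays lay inside the vehicle range and within 0.06 log2 units of each other. The difference was 0.02 ± 0.14 (limma adjusted p = 0.974), with a 95% interval from a 1.25-fold lower to a 1.28-fold higher level. Within slide 2 it was -0.25.

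Markers of the straight proximal tubule, 11 of 12 measured, had a median of 0.09 and summed to 120 to 147 in vehicle. In phenylbutazone they summed to 82.8 on array 1, 150 on array 2 and 180 on array 3, where the Aqp7 levels were 3.99, 3.95 and 4.01. Genes of the list differed in spread, with a phenylbutazone SD of 2.04 for Slc7a13 and 0.15 for Slc5a1. The part of straight tubule cells in the Aqp7 value was not tested. Adipocyte markers, 8 of 12 measured, summed to 1.94 to 2.83 in vehicle and 2.08 to 2.92 in phenylbutazone, and Lep was well above background on at most 1 array.

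Aqp11 encodes a channel of the endoplasmic reticulum of proximal tubule cells, whose loss in mice is known to give polycystic kidneys. Its intensities were 3859, 5825 and 2560 in vehicle and 2434, 2619 and 2795 in phenylbutazone. The high values were those of slide 1, and vehicle array 3 had nearly the level of the phenylbutazone arrays, at 1.47 against 1.45, 1.45 and 1.52. The difference over all arrays was -0.54 ± 0.262 (1.45-fold lower; limma adjusted p = 0.464). Within slide 2 it was -0.0019, and without vehicle replicate 3, which leaves all vehicle arrays on slide 1, it was -0.81. The vehicle SD of 0.53 was larger than that of 90.4% of genes, and the phenylbutazone SD was 0.04. For Aqp11, slide and treatment cannot be told apart beyond what the 1 vehicle array of slide 2 shows.

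**Figure D3:**
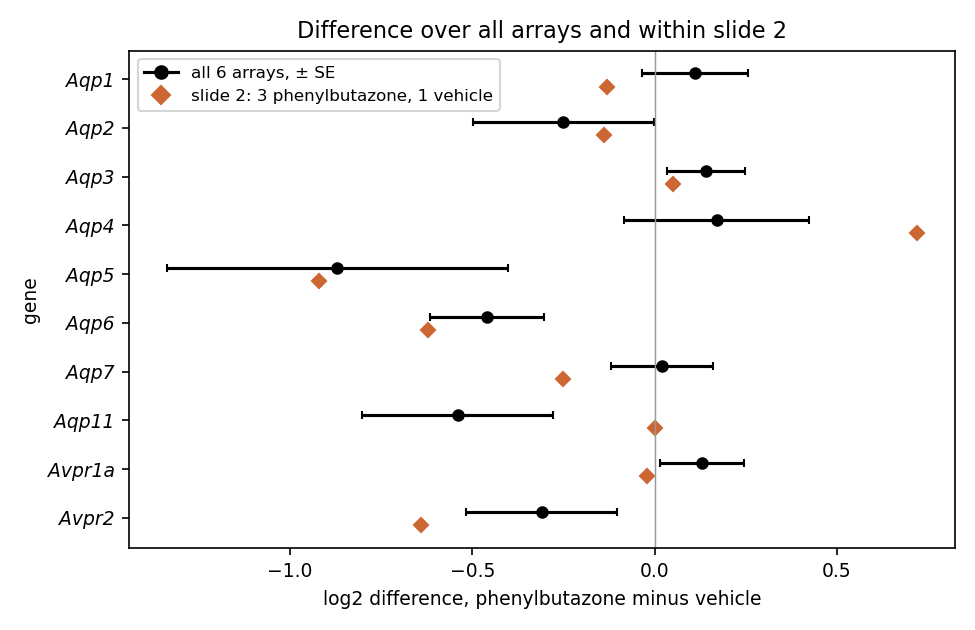
Log2 difference of each gene, phenylbutazone minus vehicle, over all 6 arrays (black circles, ± SE) and within slide 2, where 3 phenylbutazone arrays stand against 1 vehicle array (orange diamonds, no error). Aqp5, Aqp6 and Avpr2 stay below 0 in both, Aqp11 moves from -0.54 to near 0, and Aqp4 moves from 0.17 to 0.72.

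Across the 10 genes, Aqp2, Aqp5, Aqp11 and Avpr2 had exactly 2 of 3 phenylbutazone arrays below every vehicle array, against 11.3% of all genes tested. For Aqp2, Aqp5 and Avpr2 these were arrays 2 and 3, and for Aqp11 they were arrays 1 and 2. Exactly 1 phenylbutazone array was below every vehicle array in 0 of the 10 genes, against 17.6% of all genes. In 5 of the 10 genes 0 arrays were, against 61.6%. The 10 genes share the same 6 arrays and are not independent, so these counts are a description and not a test. In 1 of the 10 genes, Aqp6, the groups did not overlap, against 21.5% of all genes in either direction. Tested genes whose level closely resembled that of Aqp2 over the 6 arrays included Cfap298 (Pearson r = 0.987) and Mgst3 (0.982), given as a description. Of the 12155 genes with a symbol, 15 had an r over 0.95 with Aqp2.

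Genes that carry the vasopressin signal from the V2 receptor to cyclic AMP and CREB were measured in 26 of 29 cases, 14 higher and 12 lower, with a median of 0.03 and 0 past the test. Rgs2, which encodes a brake on G protein signalling, stood at 0.64 ± 0.157, Prkar2b, which encodes a regulatory subunit of protein kinase A, at 0.66 ± 0.25 (0.65 and 0.07 on its other probes) and Prkar1b, another such subunit, at -0.39 ± 0.151. Pde4b, which encodes a phosphodiesterase that degrades cyclic AMP, stood at 0.47 ± 0.152, at 0.14 on its other probe and at 0.19 within slide 2. Adcy6, which encodes the main vasopressin-sensitive adenylyl cyclase of the collecting duct, stood at -0.04 ± 0.0908 and at -0.24 on its other probe, and Creb1, which encodes CREB, at 0.19 ± 0.113 (0.02 and 0.12 on its other probes). At an unadjusted limma p under 0.05 stood 3 higher and 1 lower of the 26, against 5.97% and 6.24% of all genes.

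Genes known for the trafficking and turnover of AQP2 were all measured, 30 of 30, with 16 higher, 14 lower and a median of 0.01, and 0 passed. At an unadjusted limma p under 0.05 were 2 higher and 2 lower, against 5.97% and 6.24% of all genes, a share near the background. Msn, which encodes the actin linker moesin, stood at -0.42 ± 0.0979, but its other probe stood at 0.00. Anxa2, which encodes an annexin and is also an injury marker, stood at 0.39 ± 0.0928 and its other probe at 0.18. Rab11fip2, which encodes a partner of the recycling GTPase RAB11, stood at 0.40 ± 0.137.

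Transcription factors tied to the Aqp2 promoter were measured in 16 of 17 cases, 9 higher and 7 lower, with a median of 0.01 and 0 past the test. An unadjusted limma p under 0.05 was reached by 1 higher and 1 lower gene of the 16, near the 5.97% and 6.24% of all genes. Elf3 stood at 0.75 ± 0.268, with 3 of 3 phenylbutazone arrays above every vehicle array, as in 12.1% of all genes. Its other probe stood at 0.41, and there the groups overlapped. Elf5 stood at -0.19 ± 0.288. The Aqp2 window printed above holds 1 match to the ETS motif named for ELF3 and ELF5.

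Genes of urine concentration and of the osmotic stress response were measured in 17 of 18 cases, 9 higher and 8 lower, with a median of 0.10 and 0 past the test. An unadjusted limma p under 0.05 was reached by 1 higher and 2 lower genes of the 17, against 5.97% and 6.24% of all genes. Nfat5, which encodes the tonicity-responsive factor, stood at -0.01 ± 0.0889 on its brightest probe and at 0.23, 0.18 and 0.09 on its other probes, so that its probes did not give 1 direction. Among genes known to follow it, the inositol transporter gene Slc5a3 stood at 0.88 ± 0.327 (0.83 and 0.88 on its other probes), and the betaine transporter gene Slc6a12 at -0.42 ± 0.156 (-0.15 on its other probe), so that these osmolyte transporter genes pointed in opposite directions. The urea transporter gene Slc14a2 at 0.10 ± 0.119.

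Among other aquaporins and the vasopressin family, 6 of 9 genes were measured, 4 higher and 2 lower, and 0 passed. Of the 6, 2 were lower at an unadjusted limma p under 0.05, against 6.24% of all genes. Aqp12a, known from the pancreas, stood at -0.34 ± 0.109, and Mip, the lens aquaporin, at -0.46 ± 0.171, both with all 3 phenylbutazone arrays below every vehicle array, as in 9.39% of all genes. Aqp9, a glycerol channel of the liver, stood at 0.48 ± 0.282. The hormone genes Avp and Oxt stood at 0.12 ± 0.192 and 0.24 ± 0.13. Both were dim, with intensities of 33.46 to 53.68 for Avp and 29.07 to 38.25 for Oxt. The other Avp probe was well above background on 0 arrays. Oxtr, which encodes the oxytocin receptor, was well above background on 0 arrays, and Avpr1b and Lnpep had no probe that could be named. Of the prostaglandin receptor genes that act on water transport 4 of 5 were measured, among them Ptger3 at 0.26 ± 0.353 (0.19 and 0.00 on its other probes) and Ptger4 at -0.16 ± 0.23. Within slide 2 Ptger3 stood at -0.58.

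**Figure D4:**
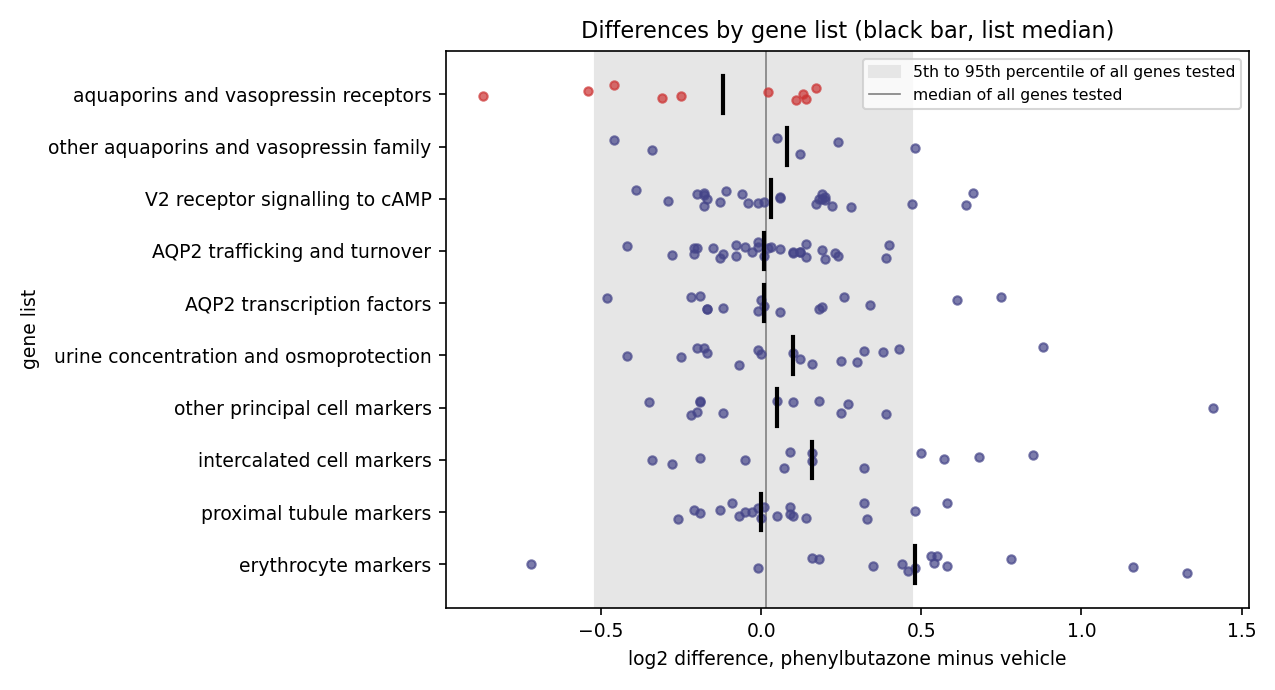
Log2 differences (x axis, phenylbutazone minus vehicle) of the measured genes of each list, 1 point per gene (red, the 10 genes described here), with the list median as a black bar. The grey band holds the 5th to 95th percentile of single genes, -0.52 to 0.47, and applies to the points, not to the list medians. The median was -0.12 for the 10 genes, 0.03 for cyclic AMP signalling, 0.01 for AQP2 trafficking, 0.48 for the erythrocyte markers and 0.015 for all genes.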

How the data were processed

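Renal cortex RNA of 6 rats was measured on one-colour Agilent arrays. Per the file headers and the submitters' processing notes, images were read with Agilent Feature Extraction 10.7, and the headers list background subtraction and detrending for the deposited spot intensity, on a linear scale per array. A separate deposited table holds a ratio, the intensity over the array's 75th percentile (column medians 0.105 to 0.110). Flags deposited by the authors with the scanner files mark spots well above background. The probe layout names the rat build rn4, and printed coordinates are those of the RefSeq build GRCr8.

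Control spots (1439) and 40 probes with outlier flags were left out. Intensities were taken to log2 and the 75th percentile subtracted. The filter kept 41006 probes (66.6%) called well above background on 3 or more arrays, and each gene was represented by its probe of highest mean. Accessions named 28206 of 61537 probes. Differences were fitted with limma 3.58.1 (R 4.3.3) by a two-sided test. On simulated arrays for phenylbutazone against vehicle with 29938 genes, the fit recovered 50 of 100 genes changed 2-fold and 86 of 100 changed 4-fold, with 9 false calls. The number of arrays limits the precision. Samples with the same replicate number did not deviate together (r = -0.0301, 0.0114 and -0.0737). This shows no pairing by number but cannot exclude one, since the vehicle arrays were split over 2 slides and the phenylbutazone arrays were not.

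The 10 genes, the lists and the rule for other named genes (up to 4 of smallest p per list, a fixed set, and the 3 most like Aqp2) were chosen with earlier results of these data known. A few genes that this rule picks are left unreported. Alternatives were median scaling, quantile normalization, normexp with an offset of 50 on the median spot signal, the deposited values, no or a stricter filter, every probe, slide as a block (fixed, or random), the arrays of slide 2 by themselves, a replicate block, a trend with intensity, and leaving out each replicate.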

Additional observations from a re-analysis of the deposited data

How the results depend on the processing

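None of the 10 genes passed in any of 18 alternatives (limma, adjusted p under 0.05). Of their 180 values 166 kept direction and side of the threshold and 14 changed direction, and Aqp2, Aqp3, Aqp5, Aqp6, Aqp11 and Avpr2 kept theirs in all. Over those alternatives the lowest limma adjusted p was 0.0742 (Aqp4, slide as a fixed block). Aqp1 turned to -0.13 with slide as a fixed block and within slide 2 and to -0.04 with slide as a random block. Aqp7 turned to -0.05 (quantile), -0.01 (normexp), -0.25 (slide fixed and slide 2 alone) and -0.16 (slide random), and lay between -0.08 and 0.15 with 1 replicate left out. Avpr1a turned to -0.03 (normexp) and -0.02 (slide fixed and slide 2 alone). Aqp4 lay between -0.10 and 0.39 with 1 replicate left out. Both slide 2 settings rest on vehicle array 3, whose own spread is then taken from the other arrays.

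The count of all genes past the threshold, 0, became 1 with quantile normalization, 2 with normexp, 8 with an intensity trend, 1 with slide as a random block, and 0 to 814 with 1 replicate left out, the highest without vehicle replicate 3, where slide and treatment coincide. At an unadjusted p under 0.05 the main count was 3657 (1788 higher, 1869 lower), against 4025 (2707 higher, 1318 lower) with median scaling and 9461 and 8101 with slide as a fixed block and slide 2 alone. Of the 219 other genes of the lists 0 passed, and 0 to 4 with 1 replicate left out. With the replicate block the counts were 0 of all genes (2695 at an unadjusted p under 0.05) and 0 of the 10, no call changed, and the Aqp6 adjusted p was 0.558. The labels state no pairing by these numbers.

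Among other named genes, turned values were 0.0038 (median scaling) for Adcy6; 0.34, 0.15 and 0.34 (slide fixed, random, slide 2 alone) for Elf5; 0.04 (median scaling), 0.01, 0.0023 and 0.01 for Nfat5; -0.03 and -0.03 (slide fixed, slide 2 alone) for Slc14a2; -0.58, -0.28 and -0.58 for Ptger3; and 0.05 (normexp) for Cfap298 and Mgst3. With 1 replicate left out Nfat5 lay between -0.03 and 0.03 and Ptger4 between -0.33 and 0.01. Without vehicle replicate 3, Ptger3 (0.69, limma adjusted p = 0.0430) and Insrr (0.78, 0.0194) passed. The causes were not tested. Aqp5 and Aqp6 were dim, which limits what their probes resolve.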
